A study of Mus musculus with 4 samples.

Results

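Hemoglobin-dominated barcodes were the cell barcodes of mouse ascites in which more than 50% of the unique molecular identifiers (UMIs) came from hemoglobin genes. A UMI marks 1 captured transcript molecule. The barcodes also held 100 to 4800 detected genes and at most 15% mitochondrial UMIs. Of 132644 barcodes within these limits, 37681 passed the hemoglobin threshold. They numbered 16970 of 36311 (46.7%) and 15943 of 25115 (63.5%) in siCont replicates 1 and 2. In siFXR1-LNA replicates 1 and 2 they numbered 2295 of 54344 (4.22%) and 2473 of 16874 (14.7%). The members were chosen by these hemoglobin shares. Their counts were set by the threshold on hemoglobin and are given without a test. Ascites came from female FVB mice with intact immunity that carried intraperitoneal Br-Luc ovarian tumor cells. By the labels it was sampled 6 weeks after tumor cell injection, and a figure legend of the paper gives a different day. Mice received control siRNA (siCont, which the methods name siCont-LNA) or an LNA-modified siRNA against Fxr1 (siFXR1-LNA), both in jetPEI nanoparticles, and each group had 2 libraries of pooled ascites. The methods leave out a siFXR1-LNA replicate with fewer reads, which the sources used here do not name, and both are used here. Red cells had been lysed with ACK buffer before droplet capture. Fewer red cells and less RNA per cell cannot be told apart in summed counts.

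Red blood cells are made from progenitors that turn on globin genes and heme synthesis under GATA1 and KLF1, shrink, expel the nucleus and leave the marrow as reticulocytes. Reticulocytes still carry RNA, mostly for hemoglobin, and clear mitochondria and ribosomes while the spectrin membrane skeleton is completed. In droplet data a barcode also collects free RNA from the suspension, so transcripts of other cells are counted in it.

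Fxr1, the siRNA target (chr3:34019943-34070322, GRCm38), encodes an RNA-binding protein of the fragile X family. In siCont replicates 1 and 2 and siFXR1-LNA replicates 1 and 2, the order of every list of 4 values below, it stood at 95.4, 46.1, 119 and 87.3 UMIs per 1000000 non-hemoglobin UMIs (CPM) in the hemoglobin-dominated barcodes and at 77.0, 62.5, 116 and 79.7 CPM in the other barcodes. The group labelled siFXR1-LNA was thus not lower in Fxr1 in either class of barcode. In the dominated barcodes the log2 change was 0.63 ± 0.31 SE (edgeR adjusted p = 0.304). The paper reports lower Fxr1 in epithelial cells with siFXR1-LNA, and those cells were not separated here. A group below is therefore the libraries labelled with that name, and every direction given for siFXR1-LNA is one for the labels. The Fxr1 paralogs Fxr2 (20.5, 17.4, 24.0 and 22.8 CPM) and Fmr1 (35.4, 25.2, 30.6 and 24.6 CPM) did not pass the test in dominated barcodes either.

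The stretches before 4 genes of the erythroid program are printed because these transcripts stood together in the barcodes described here. Hbb-bs and Hba-a1 encode the adult beta and alpha chains, Alas2 the first enzyme of erythroid heme synthesis, and Bpgm the enzyme that makes bisphosphoglycerate, which lowers the oxygen affinity of hemoglobin. The 250 bases before each RefSeq start (build GRCm38.p6) were searched on both strands for the GATA-type word AGATAA, the word TGATAA, the word AGATAG and the word TGATAG, and for CACCC, a core of KLF-type sites. The GENCODE gene record begins before the RefSeq start in all 4 genes, so each printed stretch stops where that record begins. Sequences run 5′ to 3′ on the strand of the gene, with matches in capitals.
Hbb-bs, chr7:103828097-103828178 (minus strand): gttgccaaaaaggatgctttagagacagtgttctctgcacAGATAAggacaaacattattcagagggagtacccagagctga
Hba-a1, chr11:32283422-32283510 (plus strand): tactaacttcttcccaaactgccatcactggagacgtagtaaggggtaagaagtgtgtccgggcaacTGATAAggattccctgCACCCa
Alas2, chrX:150547167-150547374 (plus strand): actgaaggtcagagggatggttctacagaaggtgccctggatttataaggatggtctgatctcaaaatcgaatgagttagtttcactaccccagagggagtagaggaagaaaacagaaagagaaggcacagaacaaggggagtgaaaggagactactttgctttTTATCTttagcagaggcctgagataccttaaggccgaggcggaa
Bpgm, chr6:34476106-34476206 (plus strand): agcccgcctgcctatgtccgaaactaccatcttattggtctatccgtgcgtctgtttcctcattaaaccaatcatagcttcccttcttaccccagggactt
The printed stretches of Hbb-bs, Hba-a1 and Alas2 each held 1 GATA-type match, and that of Hba-a1 also held 1 CACCC match. In the whole windows Hbb-bs had 1, Hba-a1 2 and Alas2 3 CACCC matches, and the Bpgm window had no match to either. Among all 32851 windows of this length, 8718 (26.5%) held a GATA-type word, 17087 a CACCC word and 3880 (11.8%) both. The windows of Hba-a1 and Hba-a2 were identical over 247 aligned bases, and how reads split between these near-identical genes is uncertain.

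The hemoglobin in these barcodes was of the adult type. Hbb-bs held 80.3% and 77.0% of hemoglobin UMIs in siCont replicates 1 and 2, and 77.8% and 74.2% in siFXR1-LNA replicates 1 and 2. Hbb-bt, the second adult beta chain, held 14.7%, 15.2%, 15.4% and 17.9% in the same order. Hba-a1 and Hba-a2 together held 4.98%, 7.80%, 6.80% and 7.91%, so counted beta chain UMIs outnumbered counted alpha chain UMIs in every library. Whether reads that match both alpha genes were counted was not examined, so these shares give no ratio of chain transcripts. The embryonic genes Hbb-bh1 and Hbb-bh2 had 0 UMIs, and Hbb-y and Hba-x had at most 22 UMIs in a library. As the rule used these genes, their values are a description.

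The libraries differed in how sharply the barcodes stood apart. The median hemoglobin share was 61.6% in siCont replicate 1, 79.3% in siCont replicate 2, 56.1% in siFXR1-LNA replicate 1 and 66.0% in siFXR1-LNA replicate 2. In siCont replicate 2, 7149 barcodes lay above 80% hemoglobin, against 100 in siCont replicate 1, 0 in siFXR1-LNA replicate 1 and 19 in siFXR1-LNA replicate 2. In siFXR1-LNA replicate 1 the barcodes rose from 1471 at 20 to 30% to 1947 at 40 to 50%, just below the threshold. Above it they fell from 1732 at 50 to 60% to 535 at 60 to 70% and 28 at 70 to 80%. Just inside the threshold (50 to 52%) Alas2 stood at 4590, 4524, 2834 and 4055 CPM, and just outside it (48 to 50%) at 4202, 4033, 2517 and 3681. The threshold therefore cut through a continuous range. Of 37064 distinct barcode sequences, 614 (1.66%) occurred among the dominated barcodes of more than 1 library.

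**Figure D1:**
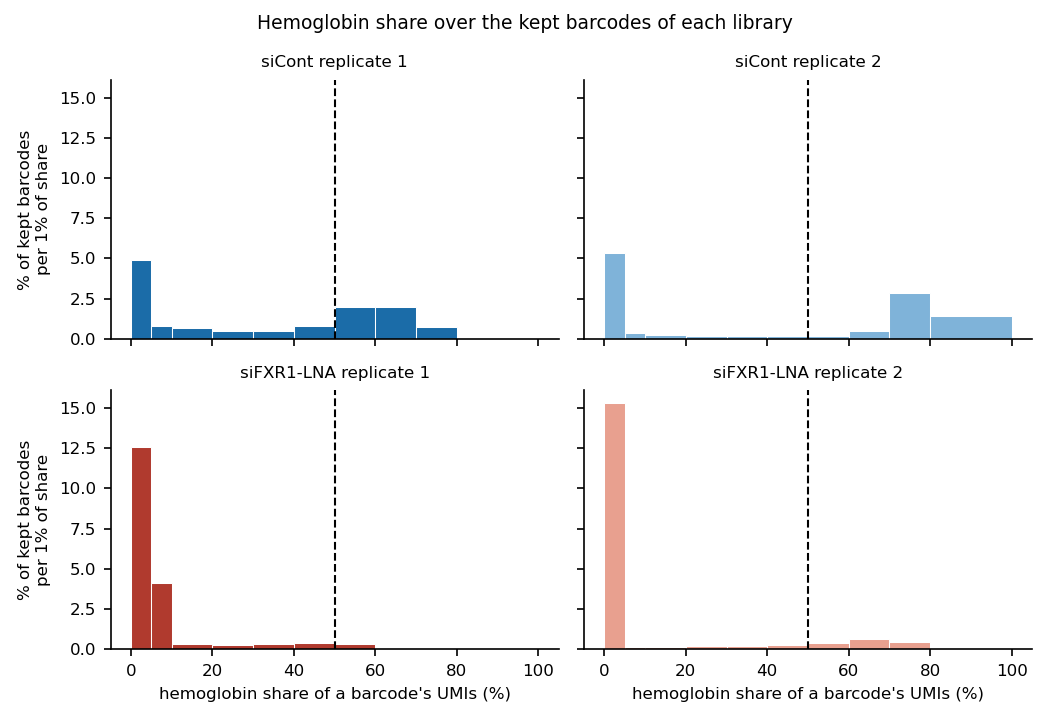
Share of kept barcodes (vertical axis, percent per 1% of hemoglobin share) against the hemoglobin share of a barcode's UMIs (horizontal axis, percent) in the 4 libraries, with the 50% threshold dashed. Both siCont libraries and siFXR1-LNA replicate 2 had a second hump above 50%. In siFXR1-LNA replicate 1 the second hump was highest at 40 to 50%, with 1947 barcodes. It fell from 1732 at 50 to 60% to 28 at 70 to 80%.

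Everything that follows concerns the remaining transcripts, in CPM of non-hemoglobin UMIs. The members held 12462629, 8977961, 2749258 and 2760575 such UMIs. Median non-hemoglobin UMIs per barcode were 688, 478, 1174 and 1041, and median genes were 445, 246, 634 and 546. Both measures were higher in both siFXR1-LNA libraries, with means of 583 ± 148 and 1108 ± 94.0 UMIs (SD, n = 2). The exact two-sided permutation test over libraries gave p = 0.333, the smallest that 2 against 2 allows. Thinned to 500 UMIs of any kind, hemoglobin included, barcodes had medians of 149, 69.0, 157 and 122 genes. The gap in genes was then 30.5, against 244.5 before. Thinning lowered every median, so these gaps are not on the same scale, and the hemoglobin shares of the libraries differed.

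The largest part of the remaining UMIs was Gm42418, a lincRNA gene that lies over ribosomal RNA sequence, at 119546, 204518, 169691 and 156337 CPM. It was followed in the siCont libraries by Cmss1 (51864, 81151, 44269 and 59834 CPM) and AY036118 (15162, 33554, 11693 and 16460 CPM). Together with Camk1d, Lars2, Gphn and Cdk8, a set put together after the values were seen, they took 20.1%, 34.5%, 24.1% and 25.1% of non-hemoglobin UMIs, against 7.71%, 7.51%, 17.3% and 9.79% in other barcodes. Ribosomal protein genes took 9.92%, 8.18%, 13.1% and 11.7%. By the mean of the siCont libraries the next included Alas2, the galectin gene Lgals1 (11692, 4983, 3479 and 2394 CPM), the ferritin heavy chain Fth1 (7615, 5909, 9780 and 14040 CPM), the antioxidant enzyme Gpx1 (3973, 9450, 4839 and 4299 CPM) and the ubiquitin gene Ubb. In siCont replicate 1 Lgals1 and Fth1 exceeded Alas2, and in both siFXR1-LNA libraries Fth1 and Saa3 (11318 and 16661 CPM) did. Tpt1 (4989, 5281, 5344 and 4748 CPM) was nearly level over the libraries.

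The erythroid label held for the red cell transcripts that the rule had not used. Alas2 reached 7240, 15097, 3529 and 7853 CPM, against 685, 387, 281 and 108 CPM in the other barcodes of the same libraries. Bpgm reached 2241, 5194, 1200 and 2598 CPM against 190, 131, 84.5 and 33.3. Slc4a1 (chr11:102348824-102366203), which encodes the band 3 anion exchanger, reached 159, 811, 332 and 366 CPM against 12.9, 22.2, 27.7 and 4.82. All 3 were higher in the dominated barcodes of every library, by 23.1-fold, 25.6-fold and 24.7-fold in the means. They were given with the label, so no p is given for them, and their places in the lists below are no independent support for it. Fold values are ratios of mean CPM over the 4 libraries, whereas log2 differences are TMM-scaled. In siCont replicate 1 Slc4a1 was lowest and in siCont replicate 2 highest, so the spread within 1 group spanned both libraries of the other.

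Alas2 had a UMI in 97.9%, 98.8%, 95.7% and 98.1% of the dominated barcodes. Other barcodes had one in 56.5%, 33.1%, 31.3% and 13.4%, at median non-hemoglobin depths of 1890, 2733, 1232 and 2395 UMIs. Thinned to 300 non-hemoglobin UMIs, the shares were 85.1%, 96.5%, 62.3% and 85.4% against 23.3%, 10.3%, 9.15% and 4.40%. Slc4a1 had a UMI in 4.27%, 16.0%, 8.60% and 8.60% of thinned dominated barcodes, and in 0.502%, 0.643%, 0.984% and 0.146% of thinned others. The other barcodes reached up to 50% hemoglobin, and among those at 0 to 5% Alas2 stood at 76.3, 38.7, 136 and 15.1 CPM. The part of free RNA in these shares was not tested.

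Across all non-hemoglobin genes, edgeR's quasi-likelihood test with the library as a block called 3362 of 15113 higher in dominated barcodes (22.2%) and 4125 lower (27.3%), or 49.5% in all. On library totals without TMM scaling it called 1670 higher and 7082 lower, and the median log2 difference of all genes moved from -0.06 to -0.50, so the number called lower depends on the scale. Against this background, the red cell membrane list had 19 of 23 genes higher and 1 lower, with a median log2 difference of 3.39. Epb41, the protein 4.1 gene of the spectrin skeleton, and the surface antigen gene Cd24a were 9.53-fold and 10.3-fold higher. Slc2a1, the glucose transporter, was the member that fell, and without TMM 19 rose and 3 fell.

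Of 11 heme synthesis genes 9 were higher and 1, the mitochondrial carrier Slc25a38, was lower, with a median log2 difference of 1.53. Without TMM 7 were higher and 1 lower. Tspo2, an erythroid porphyrin and cholesterol transport gene, rose to 101, 145, 65.8 and 122 CPM from 8.48, 3.97, 3.86 and 1.23 in others. Fech, which inserts iron into protoporphyrin, was 13.9-fold higher, whereas Urod and Alad, earlier enzymes of the pathway, were 4.67-fold and 2.23-fold higher. Of 11 iron genes 5 were higher and 1 lower, or 4 and 2 without TMM. The mitochondrial iron importer Slc25a37 stood at 438, 1383, 447 and 603 CPM against 58.5, 55.2, 53.1 and 27.8. Fth1 and Ftl1, the ferritin chains, did not pass (adjusted p = 0.917 and 0.939).

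Transcripts of reticulocyte maturation were also high. In that list 22 of 28 genes rose and Pim1 fell, with a median log2 difference of 2.19. Without TMM 21 rose and 2 fell. Ube2l6, an ISG15-conjugating enzyme, was 18.0-fold higher and Ubb 3.19-fold higher. The theta globin genes Hbq1b and Hbq1a (25.1-fold and 25.5-fold), the apolipoprotein L gene Apol11b (28.7-fold) and the amino acid transporter Slc38a5 (28.3-fold) were among the 8 largest rises, as were Tspo2 and Bpgm. Of 20 tested genes of red cell glycolysis and redox defense, 13 rose and 0 fell (median log2 difference 0.90), or 10 and 1 without TMM. The peroxiredoxin Prdx2 was 5.44-fold higher.

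Of the 11 genes of the list of erythroid transcription factors and the Epo receptor, 6 rose and 3 fell, or 4 and 4 without TMM. Gata1 stood at 18.9, 10.7, 4.36 and 2.90 CPM against 6.31, 1.87, 1.54 and 0.906. Lmo2 (48.9, 63.6, 23.6 and 38.8 CPM against 47.9, 50.0, 14.8 and 36.9) was 1.17-fold higher in CPM and had a log2 difference of 0.70 ± 0.16 SE with TMM (adjusted p = 0.008). Bcl11a, a repressor of embryonic globin that B cells also express, fell to 0.218 of its level in others. Of 10 proliferation genes 9 rose, or 5 with 1 falling without TMM, and Mki67 (89.7, 47.1, 19.6 and 24.6 CPM against 72.6, 45.1, 16.5 and 19.7) exceeded others by 1.18-fold in CPM.

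**Figure D2:**
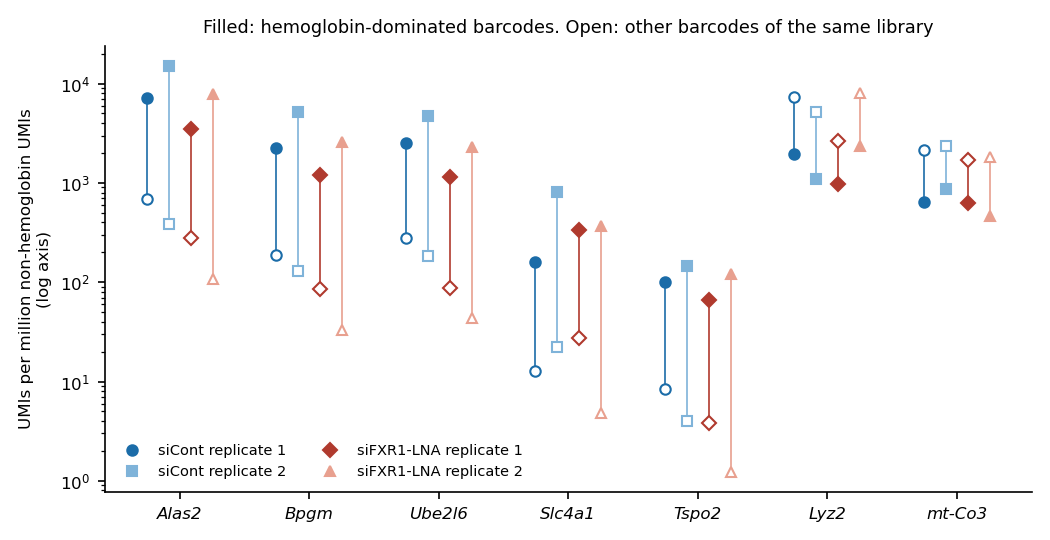
CPM of non-hemoglobin UMIs (log axis) of 7 transcripts in each library, filled for hemoglobin-dominated barcodes and open for the other barcodes, joined by a line. The 5 red cell transcripts were higher in the dominated barcodes of every library, whereas Lyz2 and mt-Co3 were lower in every library.

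Mitochondrial transcripts were low. They made up 0.369%, 0.577%, 0.403% and 0.315% of non-hemoglobin UMIs against 1.25%, 1.31%, 0.994% and 1.08% in others, and 12 of 13 fell. mt-Co3, a cytochrome oxidase subunit, was 0.325 of its level in others, and mt-Co1 (1203, 2581, 1922 and 1586 CPM against 3032, 3221, 3744 and 3675) missed the threshold (adjusted p = 0.11). No mitochondrial UMI was seen in 6.27% to 24.8% of dominated barcodes, whose depths differed as given above.

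Transcripts of other cells were present in every library. Macrophage markers summed to 4969, 2864, 2055 and 5008 CPM, against 21155, 15336, 5658 and 17847 CPM in others, and 8 of 8 fell. Lysozyme Lyz2 stood at 1952, 1091, 968 and 2351 CPM and had a UMI in 70.2%, 41.3%, 66.6% and 90.0% of dominated barcodes. Granulocyte markers fell in 8 of 9 cases (192, 2908, 1256 and 2298 CPM), B cell markers in 7 of 7 (219, 567, 35.6 and 74.6 CPM) and T cell markers in 7 of 8 (86.4, 178, 10.2 and 50.7 CPM). Of the platelet markers 1 of 8 rose and 1 fell. The 8 largest falls by the naming rule were transcripts at or near 0. Gm28379, 4930470G03Rik, 1700028N14Rik and Rptoros had 0 UMIs in all dominated barcodes, which puts them at least 11.5-fold, 7.34-fold, 8.13-fold and 9.24-fold lower against a floor of 3 UMIs over the group. Muc6, Pianp, Adam22 and Riiad1 stood at 0.241 CPM or below in every library. Clec9a, Xcr1 and Flt3, dendritic cell genes chosen after their values were seen, were at 0.0375, 0.0363 and 0.0434 of their level in others.

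Some non-red-cell transcripts went the other way. Tumor or mesothelial markers summed to 2071, 1004, 1237 and 1179 CPM against 868, 226, 1078 and 471 CPM. Of these 8 markers 7 rose (median log2 difference 1.64), or 6 without TMM. Krt19, a keratin of epithelia and mesothelium, stood at 425, 271, 274 and 241 CPM against 158, 46.7, 214 and 91.1. Wt1, a mesothelial transcription factor gene, was higher in 3 of 4 libraries (321, 152, 279 and 218 CPM against 188, 50.2, 305 and 110). Of 8 mast cell transcripts chosen after their values were seen, the sum was 6495, 4664, 110 and 397 CPM against 1972, 721, 121 and 182 CPM. Cma1, a mast cell chymase, was 4.21-fold higher in the dominated barcodes. The part of free RNA or of barcodes with more than 1 cell in these values was not tested.

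Alas2 rose with every step, in siCont replicate 1 from 76.3 CPM at 0 to 5% to 5402 at 50 to 60% and 11344 at 70 to 80%. In siFXR1-LNA replicate 1 it went from 136 to 3197 and 5828 CPM over the same steps. The macrophage list was highest at 5 to 10% in siCont replicate 1 and went from 22460 CPM at 0 to 5% to 5342 and 4347 at the later steps, and it went from 6344 to 2086 and 1774 in siFXR1-LNA replicate 1. Between 40 to 50% and 70 to 80% Saa3 went from 11609 to 10959 CPM in siFXR1-LNA replicate 1 and from 16109 to 15507 in siFXR1-LNA replicate 2. Over the same steps it went from 423 to 358 CPM in siCont replicate 1 and rose from 183 to 591 CPM in siCont replicate 2.

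**Figure D3:**
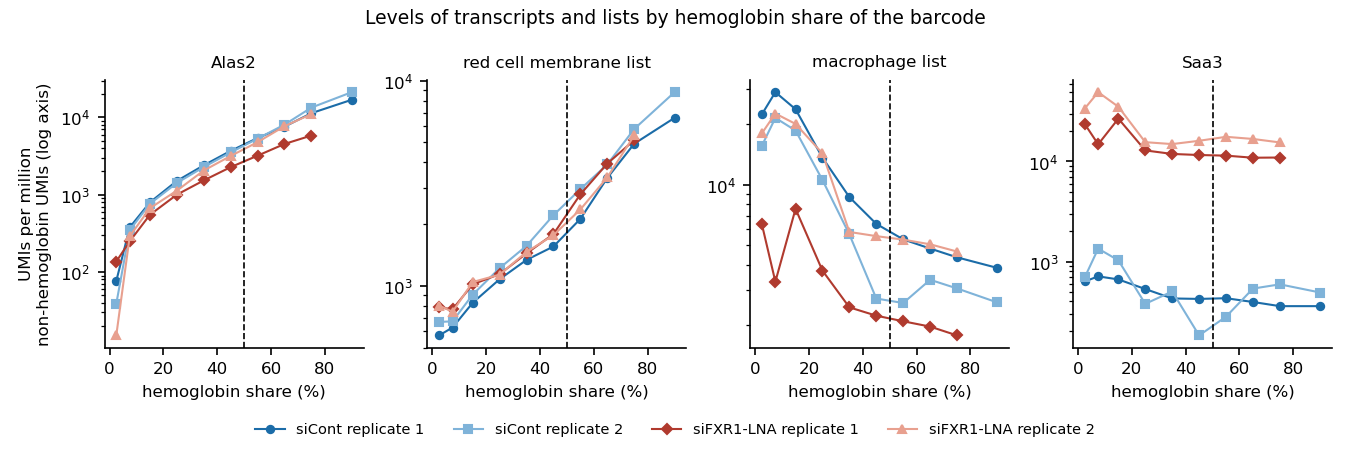
Levels in CPM of non-hemoglobin UMIs (log axis) of Alas2, the red cell membrane list, the macrophage list and Saa3 in bins of hemoglobin share (horizontal axis, percent, bins of at least 20 barcodes), 1 line per library, with the threshold dashed. Alas2 and the membrane list rose through the threshold in all 4 libraries, and Saa3 stayed apart between the groups on both sides of it.

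Red cell transcripts were also counted per 10000 hemoglobin UMIs. Alas2 stood at 41.7, 41.3, 26.2 and 39.7 in the dominated barcodes and at 46.1, 43.9, 35.5 and 39.4 in the others. Bpgm stood at 12.9, 14.2, 8.91 and 13.1 against 12.8, 14.8, 10.7 and 12.1. Others divided by dominated thus gave 0.993 to 1.36 for Alas2 and 0.924 to 1.20 for Bpgm. For Tspo2 the ratio ran from 0.723 to 1.14. Of the maturation list, Ube2l6 gave 1.28 to 1.61 and Isg20, chosen after its values were seen, 1.21 to 2.16, so these were further from equality. Lyz2, for comparison, gave 44.1 to 249. The ratio of Alas2 and Bpgm to hemoglobin thus differed by at most 1.36-fold between the classes of barcode in any library. Slc4a1 per 10000 hemoglobin UMIs was 0.915 in siCont replicate 1 and 2.22, 2.47 and 1.85 in the other libraries.

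**Figure D4:**
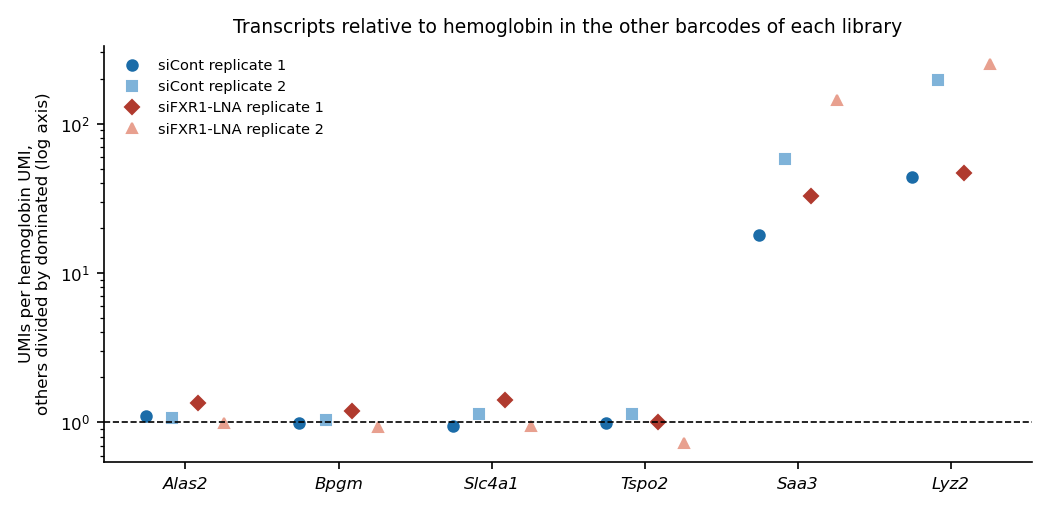
UMIs per hemoglobin UMI in the other barcodes divided by the same in the hemoglobin-dominated barcodes (log axis) for 6 transcripts, 1 point per library, with equality dashed. Alas2, Bpgm, Slc4a1 and Tspo2 lay between 0.723 and 1.42, and Saa3 and Lyz2 between 17.8 and 249. Hemoglobin share split the classes, so the ratios are a description and no test.

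Between the groups, the dominated barcodes of the libraries labelled siFXR1-LNA were higher in the inflammatory gene Saa3 and in 6 listed symbols of the hypoxia list. Of 12363 genes tested with edgeR on sums per library, 91 (0.736%) were higher and 118 (0.954%) lower in siFXR1-LNA, 1.69% in all, with a median log2 change of -0.05. Nothing says that libraries of a group came from separate experiments, so p-values measure the spread between these libraries. Without siFXR1-LNA replicate 1 the test called 0 genes (1215 at unadjusted p under 0.05), and without siFXR1-LNA replicate 2 it called 22 higher and 12 lower. Without siCont replicate 1 or 2 it called 431 and 495 higher and 901 and 634 lower.

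Saa3, an acute-phase serum amyloid gene (chr7:46711998-46715700), stood at 404 and 520 CPM in siCont and 11318 and 16661 CPM in siFXR1-LNA, without overlap (log2 change 4.90 ± 0.51 SE, adjusted p = 0.0206). Nos2, the inducible nitric oxide synthase of macrophages, went from 0.642 and 0.780 to 30.9 and 44.9 CPM (adjusted p = 0.0187). Ptges, a prostaglandin E synthase, went from 1.20 and 0.891 to 29.8 and 47.8 CPM, and Acod1, which makes itaconate, from 0.963 and 2.90 to 33.5 and 68.8. Aldh1l2, Stbd1, Ly6i and Angptl6 were the other four of the 8 largest rises, at 27.2-fold, 20.7-fold, 20.5-fold and 18.3-fold. In the other barcodes of the same libraries Saa3 stood at 616, 729, 21618 and 33427 CPM and Nos2 at 0.341, 1.15, 122 and 209, so the same groups were high there.

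Of the hypoxia list 9 of 10 symbols were in the files, and 6 of these rose (median log2 change 2.49, against -0.05 over all genes). The symbol not found was Ero1a, which the files hold under the name Ero1l. Ero1l, added after its values were seen, went from 33.7 and 42.9 to 634 and 338 CPM (edgeR adjusted p = 0.0243). Vegfa went from 32.6 and 37.9 to 522 and 351 CPM, Bnip3 from 43.4 and 41.3 to 407 and 387, and Ndrg1 from 56.9 and 46.9 to 678 and 333. The glycolytic genes Ldha and Pgk1 had log2 changes of 1.24 and 1.71 and missed the threshold (adjusted p = 0.0892 and 0.057). Of 11 iron genes 1 rose, Tfrc, the transferrin receptor (68.0 and 48.3 against 560 and 225 CPM). Thinned to 300 non-hemoglobin UMIs, 1.92%, 1.41%, 16.2% and 5.64% of dominated barcodes had a Tfrc UMI. Among thinned other barcodes 1.59%, 0.731%, 15.5% and 4.21% had one, so the same group was high there. Vegfa and Ndrg1 in the other barcodes stood at 20.7, 15.8, 474 and 228 CPM and at 26.9, 17.7, 623 and 206 CPM.

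The red cell lists are read against the 1.69% called over all genes. Of 11 heme genes, 22 tested membrane genes, 8 tested transcription factor genes, 27 tested maturation genes and 20 tested glycolysis and redox genes, 1 passed the test in all, Slc2a1 of the membrane list, which is also on the hypoxia list. This share lies near the background and is no result about these lists. Without TMM, 2 of the 8 transcription factor genes fell and 2 of the 20 glycolysis and redox genes rose. Alas2 changed by -1.04 ± 0.62 SE (adjusted p = 0.394), Bpgm by -1.04 ± 0.63 (0.395) and Slc4a1 by -0.61 ± 0.77 (0.701) on the log2 scale. For Alas2, Bpgm and Slc4a1 the 2 groups overlapped. At these standard errors a 2-fold change of Alas2 or Bpgm was not resolved. Leaving out 1 library changed the call. Without siCont replicate 2, Slc4a1 turned to 1.40 (edgeR adjusted p = 0.0111). Without siCont replicate 1, Slc4a1 was called lower at -1.45 (0.0103), Bpgm at -1.68 (0.0165) and Alas2 as well (0.023). Gata1 stood at 18.9 and 10.7 CPM in siCont and 4.36 and 2.90 in siFXR1-LNA, without overlap (adjusted p = 0.0645). Ribosomal protein genes had a median log2 change of 0.48, 80 of 81 above 0, and 0 passed the test.

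Among the falls were transcripts of lymphocytes, dividing cells and mast cells. Ighv1-22, Gpr141b, Foxs1, Maob and Ifi44 had 0 UMIs in both siFXR1-LNA libraries, which puts them at least 60.9-fold, 27.0-fold, 19.4-fold, 15.5-fold and 11.9-fold lower when the UMIs of each group were pooled and siFXR1-LNA was set to 3 UMIs. For Ighv1-22 the bound rests mostly on siCont replicate 1, with 620 UMIs (49.7 CPM) against 91 (10.1 CPM) in siCont replicate 2. The immunoglobulin genes Iglv1 (166 and 145 against 1.45 and 2.17 CPM) and Jchain (30.5 and 32.1 against 0 and 0.362) and the replication gene Dscc1 (19.8 and 5.68 against 0.364 and 0) completed the 8. Variable segments such as Ighv1-22 and Iglv1 share sequence with their neighbours and are uncertain. B cell markers were all negative, with a median log2 change of -2.90, and 0 of 7 passed, or 7 of 7 without TMM. Of 10 proliferation genes 4 fell (median -2.29), or 9 without TMM, among them Top2a (161 and 54.7 against 18.6 and 9.78 CPM) and Birc5 (69.1 and 36.3 against 13.1 and 7.61). Of 8 early erythroid and progenitor genes Gata2 and Myb fell, or 4 without TMM, and Tfrc rose. Gata2 went from 33.7 and 24.3 to 1.45 and 1.81 CPM, and mast cells and their precursors express it as well. Cma1 (2115 and 1733 against 34.6 and 134 CPM) and Mcpt4 (1463 and 841 against 8.37 and 36.2 CPM), mast cell proteases named after their values were seen, fell with it. In the other barcodes of the same libraries B cell markers summed to 1248, 1842, 123 and 221 CPM. The proliferation list summed there to 422, 283, 130 and 108 CPM, and Cma1 stood at 627, 259, 30.4 and 37.7 CPM. The same group was thus low there for B cell markers, the proliferation list and Cma1. Whether the transcripts that fell belong to erythroid cells was not tested.

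**Figure D5:**
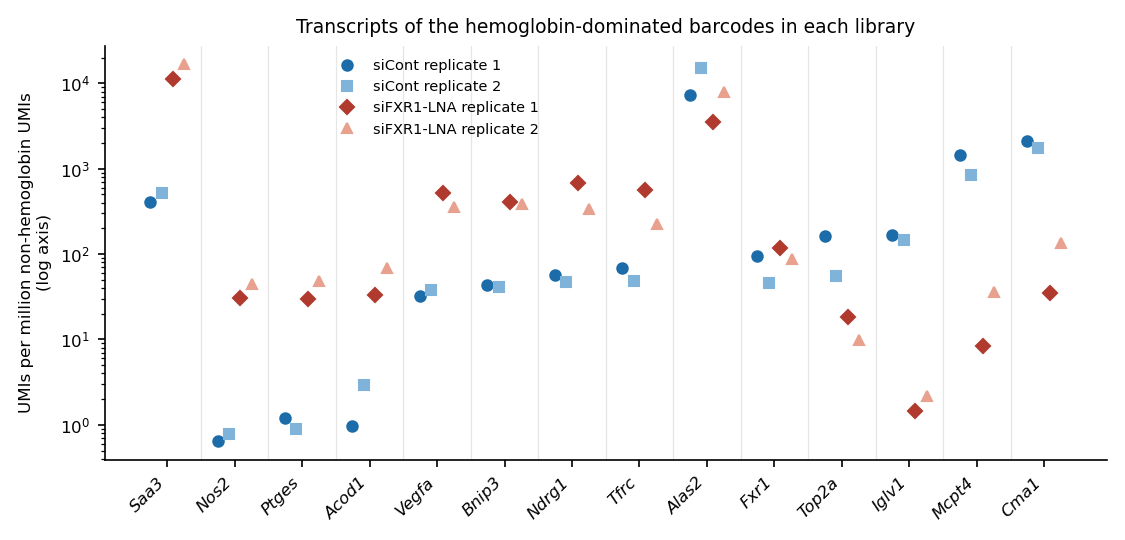
CPM of non-hemoglobin UMIs (log axis) of 14 transcripts in the hemoglobin-dominated barcodes of each library. Saa3, Nos2, Ptges, Acod1, Vegfa, Bnip3, Ndrg1 and Tfrc were higher and Top2a, Iglv1, Mcpt4 and Cma1 lower in both siFXR1-LNA libraries, whereas the groups overlapped for Alas2 and Fxr1.

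Whether a group change was particular to the dominated barcodes was tested as an interaction over the 8 sums. Of 16507 genes 2 (0.0121%) had a higher and 6 (0.0363%) a lower group change in dominated than in other barcodes, 0.0485% in all. Isg15, an interferon-induced ubiquitin-like protein, stood at 988, 864, 607 and 680 CPM in dominated barcodes and at 297, 377, 48.3 and 38.6 CPM in others. In every library its level was higher in the dominated barcodes. Naaa, a lysosomal amidase, stood at 45.4, 32.5, 104 and 96.7 CPM in dominated barcodes and at 140, 159, 95.4 and 76.7 CPM in others. The metallothionein Mt2 rose in both classes, from 41.8 and 13.9 to 243 and 280 CPM in dominated barcodes and from 17.6 and 5.84 to 473 and 788 CPM in others. Lower changes were also found in Csta2, Hdc, Egr1 and Il1rn. For all other genes, Saa3, Vegfa and Alas2 included, a difference between the classes was not shown, and without either siFXR1-LNA library the test called 0 genes (617 and 1424 at unadjusted p under 0.05 without replicates 1 and 2).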

How the data were processed

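Ascites libraries (siCont and siFXR1-LNA, 2 each) were measured by 10x Genomics 3′ single-cell RNA-seq. Ascites of several mice was pooled per sample, which the methods state. Per the labels, the authors aligned reads to mm10 and counted UMIs per gene and barcode with Cell Ranger 7.0.0, and the deposited matrices hold raw UMI counts for 32285 genes. The methods name another release, and the sources name different kit versions.

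Library totals were 78179267 to 113606837 UMIs. The gene limits (100 to 4800) and the mitochondrial limit (15%) of the study were applied, and barcodes over 50% hemoglobin UMIs (8 Hba- and Hbb- genes) were selected. No doublet caller was run and free RNA was not subtracted. Counts of non-hemoglobin genes were summed per library and tested with edgeR 4.0.16 (R 4.3.3) after filterByExpr and TMM scaling, at a Benjamini-Hochberg adjusted p of 0.05. Cells were not treated as replicates. Summaries over libraries used the exact permutation test. CPM values are not TMM-scaled. A fold against 0 used a floor of 3 UMIs over the group, and floors and intervals cover counting error only. Genes were named by rule: the 5 markers, the Fxr1 family, the 15 highest non-hemoglobin transcripts, the 8 largest rises and falls per test (mean of at least 20 UMIs, same direction in every library), and the highest of each list. Results for some genes that the rule names are not reported here. Members and lists were chosen with earlier results of these data known. Alternatives included DESeq2 1.42.0, no filter on low counts, other hemoglobin thresholds, a replicate block and leaving out each library. On counts simulated with a dispersion of 0.02, the group test on 12145 genes called 59.4% of 2-fold and 100% of 4-fold changes. Only genes expected to hold at least 20 UMIs in the smallest sum were changed. The dispersion was set and not fitted to these libraries, so these shares are not the power of the test here. Gene positions are from GENCODE vM21 (GRCm38) and promoters from RefSeq (GRCm38.p6).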

Additional observations from a re-analysis of the deposited data

Results flagged for a closer look

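The group change differed between hemoglobin-dominated and other barcodes for 8 genes, 7 of them given here, by edgeR's interaction test. The difference of the log2 changes (dominated minus other barcodes) was -2.98 for Csta2, -2.88 for Hdc, -2.73 for Egr1, -2.73 for Mt2 and -2.41 for Il1rn, with adjusted p between 0.013 and 0.0472. It was 2.16 for Isg15 (0.0452) and 1.91 for Naaa (0.0409). Hdc, which makes histamine, stood at 87.3, 103, 13.5 and 29.3 CPM in the dominated barcodes of siCont replicates 1 and 2 and siFXR1-LNA replicates 1 and 2, and at 40.8, 38.9, 34.3 and 76.1 CPM in the others. Csta2 and Il1rn were lower in dominated than in other barcodes of both siFXR1-LNA libraries and higher in both siCont libraries. These 7 genes were called in 7 or 8 of 10 alternatives each.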

How the results depend on the processing

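With 2 libraries a group and ascites of several mice pooled in each, p-values rest on few degrees of freedom, and low transcripts of members with 478 to 1174 median non-hemoglobin UMIs were not detectable at this depth. The cause of the shifts below was not tested. The gap in median genes between the groups was 244.5 and 30.5 when thinned to 500 UMIs.

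For the group comparison (91 higher, 118 lower), DESeq2 called 345 and 411, no filter on low counts 318 and 585, and library totals without TMM 267 and 676. A hemoglobin threshold of 60% gave 153 higher, members with under 1000 non-hemoglobin UMIs gave 138 higher, and a threshold of 80%, which left 3 libraries, gave 2 and 4. Leaving out 1 library gave 0 to 495 higher and 0 to 901 lower. The group left with 1 library is then assumed to vary like the other. With the replicate block it called 1077 and 1413. The libraries share only a number: the difference of replicate 1 and replicate 2 correlated between the groups at r = 0.39 across 12363 genes, which are not independent replicates. For dominated against other barcodes (3362 higher, 4125 lower), the 80% threshold gave 1494 and 1701 and library totals 1670 and 7082, and leaving out 1 library gave 1814 to 3504 higher and 2930 to 4064 lower. For the difference of group changes (2 higher, 6 lower), DESeq2 called 23 and 33, the 60% threshold 4 and 12, at least 200 genes 4 higher, the 80% threshold 0 and 11, library totals 25 and 26, no filter 58 and 530, and leaving out 1 library 0 to 53 and 0 to 784.

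The group log2 change turned its sign for 10 of the genes named. Leaving out 1 library moved it from -1.448 to 1.404 for Slc4a1, -1.717 to 0.03678 for Bpgm, -0.8706 to 0.2773 for Cmss1, -1.483 to 0.1653 for AY036118, -1.282 to 0.47 for Gpx1, -0.5604 to 0.7159 for Gm42418, -0.6318 to 0.8736 for Lars2 and -0.2993 to 0.2845 for Tpt1, with the high end without siCont replicate 2 in each. It ran from -0.2214 to 0.06322 for Fmr1 (high without siFXR1-LNA replicate 2) and from -0.2757 to 1.08 for Gphn (low without siCont replicate 1). Without siFXR1-LNA replicate 2 it was also above 0 for Gm42418 (0.01276), Lars2 (0.01762) and Tpt1 (0.05916). With library totals it was 0.006945 for Gm42418 and 0.01607 for Lars2, and with the replicate block 0.08761, 0.1303 and 0.001517 for Gm42418, Lars2 and Tpt1. Fmr1 was at 0.004377 with the 60% threshold, and Gphn at -0.5964 with the 80% threshold and -0.06201 among barcodes under 1000 non-hemoglobin UMIs. Between dominated and other barcodes Fxr1 was at -0.08051 with the 80% threshold, Nos2 at 0.7078 in the siCont libraries alone and Ero1l at -0.02361 with library totals. The difference of group changes for Naaa was -12.64 with the 80% threshold. At that threshold siFXR1-LNA rested on 19 barcodes of replicate 2, for the Gphn value above as well. Library totals, the 60% threshold and the removal of the repeat-linked transcripts were chosen after seeing the data.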
